A study of Mus musculus with 4 samples.

Results

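The 10 epithelial junction and adhesion genes, Epcam, Cdh1, Cdh3, Cldn1, Cldn3, Cldn4, Cldn7, Cldn8, Ocln and Tjp1, were followed by symbol through single-cell RNA sequencing of mouse mammary epithelium. All 10 of the 10 were among the 52636 genes of the count matrices, and all 10 had unique molecular identifiers (UMIs, the counted molecules) in each of the 4 libraries. The libraries crossed 2 genotypes of the estrogen receptor gene Esr1, wild type (WT) and the Y541S mutant, with 2 treatments, vehicle (MCT) and giredestrant, a drug that blocks the estrogen receptor and promotes its breakdown. Mice in all 4 groups were raised to 6 months and carried pellets of estradiol and progesterone (E2 and P4), so the vehicle groups are hormone-treated and not untreated. Giredestrant was given by mouth at 30 mg/kg and both agents were given once a day for 4 days. Cells positive for EpCAM protein were then sorted and sequenced from transcript 3' ends. How the Y541S allele is expressed, and how many animals went into a library, is not given in the sources used here. Each group is 1 library, so no difference between groups has a replicate check, and intervals on levels and ratios (95%, exact) cover counting error only.

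Epithelial cells are held together near their apical face by tight junctions, in which claudins and occludin span the membrane and Tjp1 (ZO-1) anchors them to actin. Below these lie adherens junctions built on classical cadherins. In the mammary duct an inner luminal layer, made of hormone-sensing and secretory cells, forms the sealed tight junctions, while the outer basal myoepithelial layer contracts and contacts the basement membrane. E-cadherin (Cdh1) is the cadherin of the luminal layer, P-cadherin (Cdh3) is the classical marker of the basal layer, and EpCAM is a surface glycoprotein, high on luminal and lower on basal cells, that binds claudins.

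Of 30062 barcodes, 25950 were kept, those with at least 1000 UMIs, at least 500 genes detected and no more than 15% of UMIs from mitochondrial genes. Cells were assigned by gates that contain no member: hormone-sensing (Esr1, Prlr, Areg and Foxa1 together at 10 or more UMIs per 10000), secretory (Wfdc18, Csn3, Elf5 and Kit, 10 or more) and basal (Acta2, Myh11, Mylk and Tagln, 20 or more). Hormone-sensing cells were split at 3 Krt14 UMIs per 10000, Krt14 being a basal keratin. This gave 5234 Krt14-low and 1026 Krt14-high hormone-sensing cells, 4170 secretory and 12422 basal cells. A further 2280 cells met no gate, and 818 met more than 1 and were left out. The source label calls the material mature luminal cells, but basal cells were the most frequent class in 3 libraries (40.9% to 68.2%) and made up 32.9% of the WT giredestrant library, where Krt14-low hormone-sensing cells made up 34.1%. Marker genes outside the gates followed the class names: 6 basal markers summed to between 6610 and 8084 CPM (the UMIs of a gene scaled to the total UMIs of its class) in basal cells, and the 6 secretory markers to between 2363 and 3042 in secretory cells. The separation was not complete, as the secretory markers summed to between 577 and 1005 CPM in basal cells, highest in Y541S giredestrant. The 6 hormone-sensing markers summed to between 737 and 2208 in Krt14-low hormone-sensing cells, lowest with giredestrant in Y541S. Median UMIs per kept cell ran from 6268 in the Y541S giredestrant library to 21927 in the WT giredestrant library. Pairs of libraries shared 7 to 23 barcodes. Krt14-high cells numbered 980 in the Y541S giredestrant library, 39.5% of its hormone-sensing cells, against 15, 9 and 22 in the WT vehicle, WT giredestrant and Y541S vehicle libraries. Only the first of these was described, since the other sums held fewer than 30 cells.

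The members separated the layers of the duct. Each class was present in every library, so differences between classes were tested over the 4 libraries (edgeR's quasi-likelihood test with library as a term and Benjamini-Hochberg adjustment over 19548 genes). In basal against Krt14-low hormone-sensing cells, 8 members were lower and 2 higher at an adjusted p under 0.05, while over all genes 30.6% were lower and 29.5% higher. The median log2 difference of the members was -3.04, against -0.02 over all genes. In basal against secretory cells 9 members were lower and 1 higher (23% and 24.4% of all genes), with a member median of -4.06 against 0.01. In secretory against hormone-sensing cells 2 were lower and 2 higher (24.2% and 21.6% of all genes), and the members' median was 0.17 against -0.03, so here the number of members past the test was near that of genes at large.

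Epcam marks the cells that the sort selected, so its presence everywhere follows from the design, and only its level can be compared. Levels are in CPM and given in the order WT vehicle, WT giredestrant, Y541S vehicle and Y541S giredestrant. They compare 1 gene between cells and not genes with each other. Epcam stood at 1903, 2399, 2256 and 2118 CPM in Krt14-low hormone-sensing cells, at 2826, 2801, 2793 and 2141 in secretory cells, and at 646, 397, 535 and 554 in basal cells. All 4 basal values lay below all 8 luminal ones. The log2 difference was -1.94 ± 0.16 (SE, n = 4 libraries) from hormone-sensing cells and -2.08 ± 0.16 from secretory cells (edgeR adjusted p of 1.18e-05 and 1.4e-05). The SE, here and below, was derived from the edgeR F statistic of a shared fit to all class sums. It is not the SE of 4 separate library differences.

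The cadherins ran in opposite directions. Cdh1 stood at 392, 555, 515 and 705 CPM in Krt14-low hormone-sensing cells, at 918, 810, 801 and 994 in secretory cells and at 350, 275, 299 and 570 in basal cells. Within every library secretory cells were highest and basal cells lowest. Basal cells were below secretory cells by a log2 difference of -1.06 ± 0.16 (SE, n = 4 libraries, edgeR adjusted p = 0.000543). The smaller steps, -0.48 ± 0.16 for basal and 0.58 ± 0.16 for secretory against hormone-sensing cells (edgeR adjusted p of 0.0236 and 0.0137), did not hold in every setting. The basal step was lost without the WT giredestrant library (-0.32, adjusted p = 0.172) or the Y541S vehicle library (-0.37, 0.161), and the secretory step without the WT vehicle library (0.48, 0.0927).

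Cdh3 was highest in basal cells, at 233, 190, 200 and 282 CPM. It stood at 19.1, 1.60, 6.29 and 39.6 CPM in Krt14-low hormone-sensing cells and at 5.93, 2.15, 2.03 and 6.34 in secretory cells. The lowest basal value was above the highest luminal one. Basal cells exceeded hormone-sensing cells by a log2 difference of 4.51 ± 0.58 and secretory cells by 6.32 ± 0.63 (SE, n = 4 libraries, edgeR adjusted p of 0.000161 and 5.57e-05). Secretory cells were below hormone-sensing cells by -1.81 ± 0.55 (adjusted p = 0.025), a call that was lost without the WT vehicle (0.0914), the Y541S vehicle (0.101) or the Y541S giredestrant library (0.0896).

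Free RNA from lysed cells puts UMIs into droplets of cells that do not make them, so shares of cells with a UMI were set beside fibroblast, endothelial and immune cells from the same libraries, of which there were 138, 69, 56 and 84 with median depths of 7695, 8792, 10153 and 4752 UMIs. Each cell was thinned to 3000 UMIs, leaving out shallower cells. Median depths were 12999, 20809, 14988 and 6991 UMIs in secretory cells and 10467, 18248, 12227 and 5488 in basal cells. In secretory cells Cdh3 was seen in 0.781%, 0.667%, 0.591% and 1.99% of cells (3.24%, 2.97%, 2.51% and 4.21% unthinned), and in the non-epithelial cells in 3.42%, 0%, 2.13% and 0% (4 of 117, 0 of 53, 1 of 47 and 0 of 64 cells). The 2 zeros allow shares of up to 6.72% and 5.60% (exact binomial upper bounds). The secretory share lay within this range and is read as background.

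The claudins of the luminal seal, Cldn3, Cldn4 and Cldn7, were high in both luminal classes and low in basal cells. Cldn3 stood at 610, 509, 620 and 239 CPM in Krt14-low hormone-sensing cells, at 574, 810, 707 and 538 in secretory cells, and at 6.19, 4.33, 6.62 and 7.11 in basal cells. Cldn4 stood at 706, 511, 761 and 667, at 590, 429, 483 and 504, and at 9.24, 3.16, 8.08 and 23.9 CPM in the same order of classes. Cldn7, which binds EpCAM, stood at 516, 382, 551 and 457, at 694, 489, 681 and 714, and at 5.09, 2.04, 5.11 and 13.1 CPM.

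No basal value of these genes came near a luminal one, as the plot of levels by class shows. The log2 difference of basal from hormone-sensing cells was -6.22 ± 0.39 for Cldn3, -6.05 ± 0.47 for Cldn4 and -6.36 ± 0.42 for Cldn7 (SE, n = 4 libraries, edgeR adjusted p of 2.63e-06, 8.04e-06 and 3.35e-06). After thinning, 72.1% to 80.4% of hormone-sensing cells had a Cldn3 UMI in 3 libraries and 42.7% in the Y541S giredestrant library (93.0% to 97.7% and 68.3% unthinned). In basal cells the shares of Cldn3, Cldn4 and Cldn7 ran from 0.61% to 4.12%, against 0% to 4.69% in the non-epithelial cells. The share of cells thus did not set the basal levels of these genes apart from background. It could not exclude low basal expression. Only 117, 53, 47 and 64 thinned non-epithelial cells were at hand, with upper bounds from 3.10% to 14.5%. Levels ran either way, with Cldn4 at 2.38, 1.33, 67.1 and 8.59 CPM in the non-epithelial cells. Between the luminal classes none of these genes passed the test (secretory against hormone-sensing: 0.30 ± 0.31, -0.55 ± 0.37 and 0.25 ± 0.33).

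Cldn8 and Cldn1 divided the luminal layer. Cldn8, a claudin best known from the distal nephron, stood at 53.6, 29.9, 61.4 and 26.4 CPM in Krt14-low hormone-sensing cells, at 12.1, 8.78, 9.45 and 7.44 in secretory cells and at 0.224 to 0.757 in basal cells. Its basal level was below the hormone-sensing one by -6.54 ± 0.47 (edgeR adjusted p = 4.81e-06). All 4 hormone-sensing values exceeded all 4 secretory ones. The secretory level was lower by a log2 difference of -2.30 ± 0.36 (edgeR adjusted p = 0.000886, SE, n = 4 libraries). Cldn1, the claudin of the skin barrier, ran the other way, at 1.12, 0.759, 2.02 and 8.31 CPM in hormone-sensing cells and 40.1, 67.9, 65.7 and 115 in secretory cells. Its difference was 4.86 ± 0.39 (edgeR adjusted p = 2.39e-05). In basal cells Cldn1 stood at 2.36, 4.02, 2.61 and 9.97 CPM, above hormone-sensing cells by 0.98 ± 0.36 (edgeR adjusted p = 0.0386). That call was lost without the WT vehicle (0.12), WT giredestrant (0.0565) or Y541S vehicle library (0.0645), and at these levels 0.442% to 2.56% of basal and 0% to 2.37% of hormone-sensing cells had a UMI after thinning, against 0% to 2.13% of non-epithelial cells.

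Ocln, which codes for occludin, followed the luminal claudins at lower contrast. It stood at 81.6, 104, 119 and 136 CPM in hormone-sensing, 151, 160, 117 and 125 in secretory and 8.61, 3.31, 3.96 and 8.62 in basal cells. The basal level was lower than the hormone-sensing one by a log2 difference of -4.13 ± 0.33 (SE, n = 4 libraries, edgeR adjusted p = 8.67e-06). Tjp1, the scaffold, stood at 169, 196, 184 and 200, at 187, 196, 169 and 218, and at 102, 118, 102 and 127 CPM in the same classes. Its basal level was below the hormone-sensing one by -0.67 ± 0.11 (adjusted p = 0.000704) with no overlap between basal and luminal values, and it overlaps 3 annotated genes whose reads could not be separated here. Tjp1 was not limited to epithelium: 21.9% to 27.7% of thinned non-epithelial cells had a Tjp1 UMI, against 23.7% to 29.7% of basal cells. At this depth the median number of members seen per thinned cell was 4 or 5 in luminal classes, 2 in basal cells and 0 in non-epithelial cells.

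**Figure D1:**
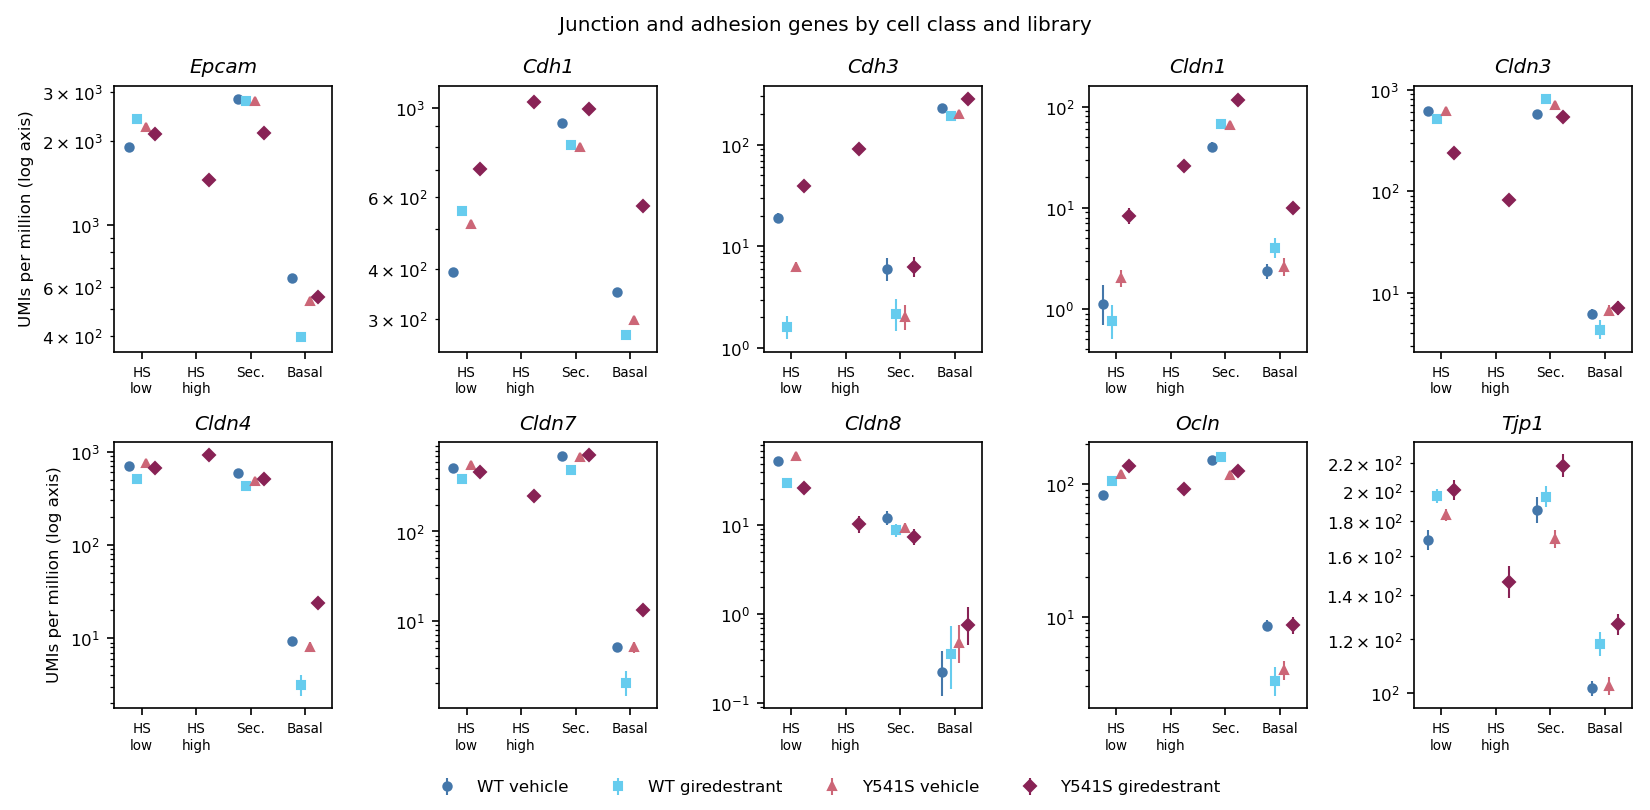
CPM (log axis) of each member by cell class (HS low and HS high, hormone-sensing cells with low and high Krt14; Sec., secretory; basal); each point is 1 library, bars are exact 95% Poisson intervals, and sums of under 30 cells are not drawn. All basal points of Cldn3, Cldn4, Cldn7, Cldn8 and Ocln lie below all luminal points, while Cdh3 is highest in basal cells and Cldn1 in secretory cells.

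**Figure D2:**
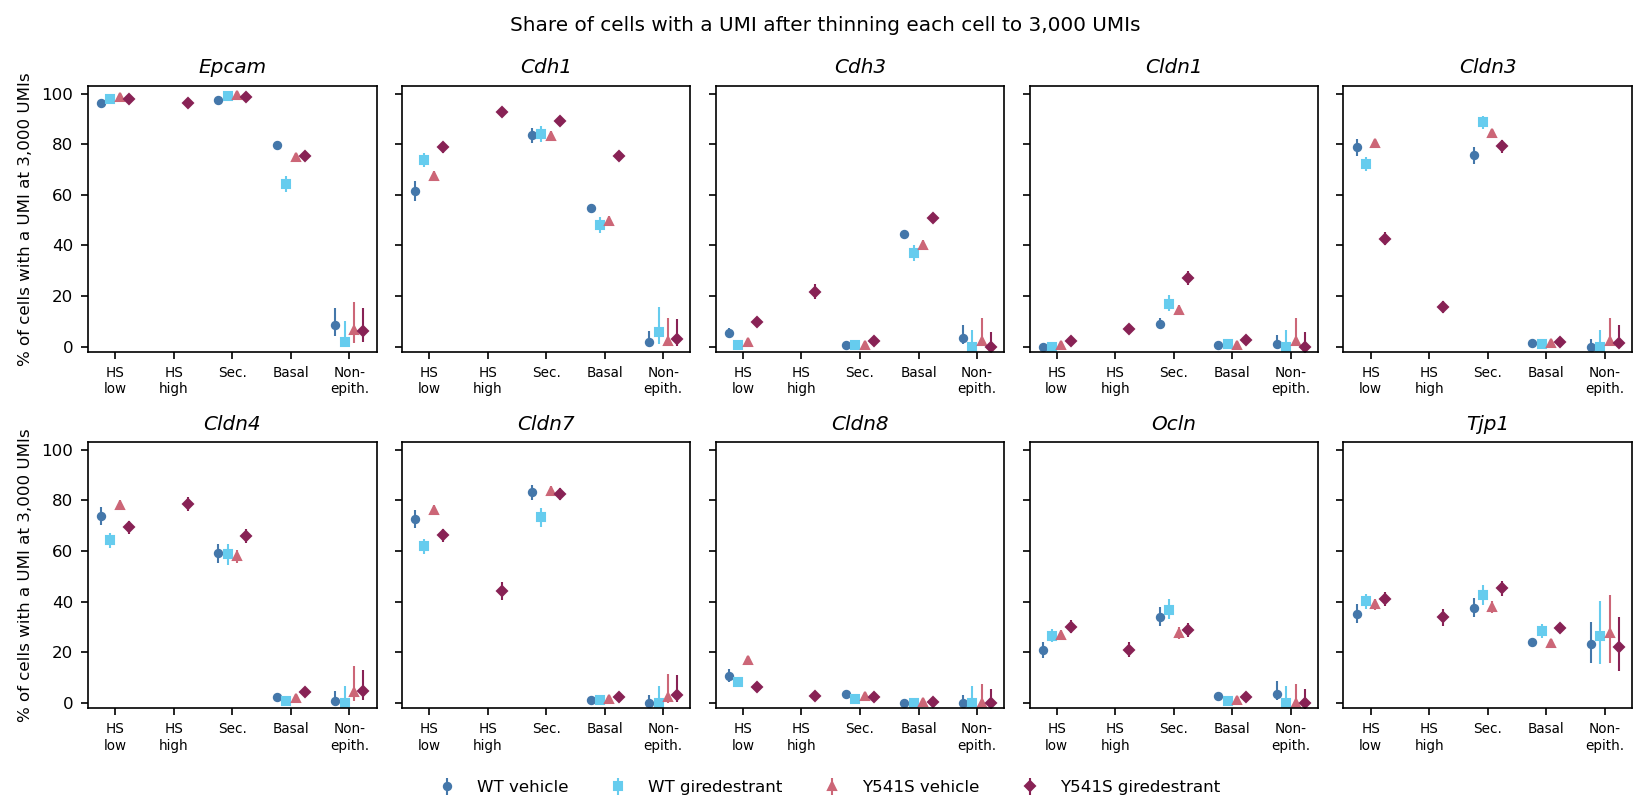
Percent of cells with at least 1 UMI of each member after thinning every cell to 3000 UMIs; points are libraries and bars exact 95% binomial intervals. In basal cells Cldn3, Cldn4, Cldn7, Cldn8 and Ocln lie within the intervals of the non-epithelial cells, and Tjp1 is seen in both.

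The first question of the design is what giredestrant did to each cell class in each genotype. Because there is 1 library per group, these differences carry no test. A ratio of CPM is given relative to the median gene of its class and comparison, and a gene is counted as higher or lower at 1.5-fold or more with 20 or more UMIs in both sums together. The median gene of Krt14-low hormone-sensing cells lay above 0 with giredestrant, at a log2 ratio of 0.44 in WT and 0.34 in Y541S, so plain and relative ratios differ there. The comparisons share libraries: each vehicle library serves 1 treatment and 1 genotype comparison.

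In WT Krt14-low hormone-sensing cells, 0 members were higher and 6 lower with giredestrant, while 22.2% of all genes were higher and 22.1% lower. The members' median relative log2 ratio was -0.79, where the median over all genes is 0 by construction. Cdh3 was the extreme, at 19.1 CPM with vehicle and 1.60 with giredestrant (358 and 57 UMIs), a relative log2 ratio of -4.02 (95% interval -4.45 to -3.61). Its shares of thinned cells, 5.18% and 0.587%, lay within the intervals of the non-epithelial cells (0.939% to 8.52% and 0% to 6.72%). Those non-epithelial cells had Cdh3 at 33.3 CPM with vehicle and 2.66 with giredestrant. The part of background RNA in this ratio was not tested. The luminal claudins stood lower as well, Cldn8 at -1.28 (-1.41 to -1.16), Cldn4 at -0.91 (-0.94 to -0.87), Cldn7 at -0.87 (-0.91 to -0.84) and Cldn3 at -0.70 (-0.74 to -0.67).

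As plain CPM ratios these were 0.558, 0.724, 0.740 and 0.833, so without the shift only Cldn8 passes 1.5-fold. Epcam, Cdh1, Ocln and Tjp1 did not pass, at relative values from -0.22 to 0.06. Their plain ratios, from 1.16 to 1.42, lay above 1, so the direction of Epcam, Ocln and Tjp1 depends on the scaling. Cldn1 was counted as lower at -1.004, but on 21 and 27 UMIs, and its sign turned when the gates were set 2 times higher or cells of more than 1 gate were kept.

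In Y541S Krt14-low hormone-sensing cells the pattern differed by gene. Cdh3 stood at 6.29 CPM with vehicle and 39.6 with giredestrant (relative log2 ratio 2.31, 2.12 to 2.50) and Cldn1 at 2.02 and 8.31 (1.70, 1.33 to 2.08). Cldn3 was the lowest of the claudins relative to vehicle, at 620 and 239 CPM (-1.72, -1.77 to -1.67), with Cldn8 at -1.56 (-1.71 to -1.41) and Cldn7 at -0.61 (-0.65 to -0.58). Thus 2 members were higher and 3 lower, against 23% and 24.4% of all genes. Without the shift Cldn7 no longer passes (ratio 0.829).

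Cldn4, the neighbour of Cldn3, stood at 761 and 667 CPM and did not pass (-0.53, -0.56 to -0.50). The difference between the pair was also seen in shares of cells. In the Y541S giredestrant library 42.7% of thinned cells of this class had a Cldn3 UMI and 69.5% a Cldn4 UMI. The joint shares below largely restate these and do not test whether the genes part within single cells. After thinning, 38.2% (35.6% to 40.8%) of Krt14-low hormone-sensing cells of the Y541S giredestrant library had a Cldn4 UMI and none of Cldn3, against 12.1%, 15.6% and 13.3% in the WT vehicle, WT giredestrant and Y541S vehicle libraries. Without thinning the 4 shares were 21.9%, 2.71%, 3.87% and 1.30%, at median depths of 9260, 28914, 29584 and 25121 UMIs. The reverse, Cldn3 without Cldn4, was found in 11.4% of thinned cells of the Y541S giredestrant library and in 15.4% to 23.4% elsewhere.

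Markers of basal cells moved with Cdh3 and Cldn1. The 6 basal markers (Krt5, Krt14, Oxtr, Cnn1, Trp63 and Krt17), 6 of 6 detected, summed to 170 CPM in Krt14-low hormone-sensing cells of the Y541S giredestrant library and to 17.5 to 27.8 in the other libraries. They did not move as a block. Set as a percent of the basal level in the same library, Cdh3 stood at 8.21%, 0.841%, 3.15% and 14.0% across the libraries and Trp63 at 1.76%, 1.06%, 0.714% and 23.5%, both highest in Y541S giredestrant. Krt17 (3.17%), Krt14 (1.54%, limited by the split), Krt5 (0.718%) and the contractile gene Cnn1 (0.532%) were also at their highest there, while the oxytocin receptor Oxtr was at its lowest (0.203%, against 0.303% to 0.421%). The part of RNA from basal cells in the Cdh3 values was not tested. For Cldn1 the basal level in that library was 9.97 CPM, close to the 8.31 of the hormone-sensing cells, and the secretory level 115. Its thinned share there, 2.37%, lay within the interval of the non-epithelial cells (0% to 5.60%), so Cldn1 was not above background by share of cells. Cdh3 UMIs were present in 9.54% of thinned cells of the Y541S giredestrant library and 5.18% of the WT vehicle library, against 0.587% and 1.78% in the others. Only the 9.54% lay above the interval of the non-epithelial cells of its library (0% to 5.60%).

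Between genotypes under vehicle, 1 member was higher and 1 lower in Y541S Krt14-low hormone-sensing cells, near the shares of all genes (11.7% and 11.4%). Cdh3 was the lower one (-1.73, -1.95 to -1.51) and Cldn1 the higher (0.72, 0.04 to 1.47). In both vehicle libraries the thinned shares of these genes were not above the intervals of the non-epithelial cells. The other 8 lay between -0.10 and 0.42. Under giredestrant 2 were higher and 1 lower in Y541S (23.7% and 23.2% of all genes), with Cdh3 at 4.61 (4.22 to 5.03), Cldn1 at 3.44 (2.83 to 4.09) and Cldn3 at -1.10 (-1.15 to -1.05).

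**Figure D3:**
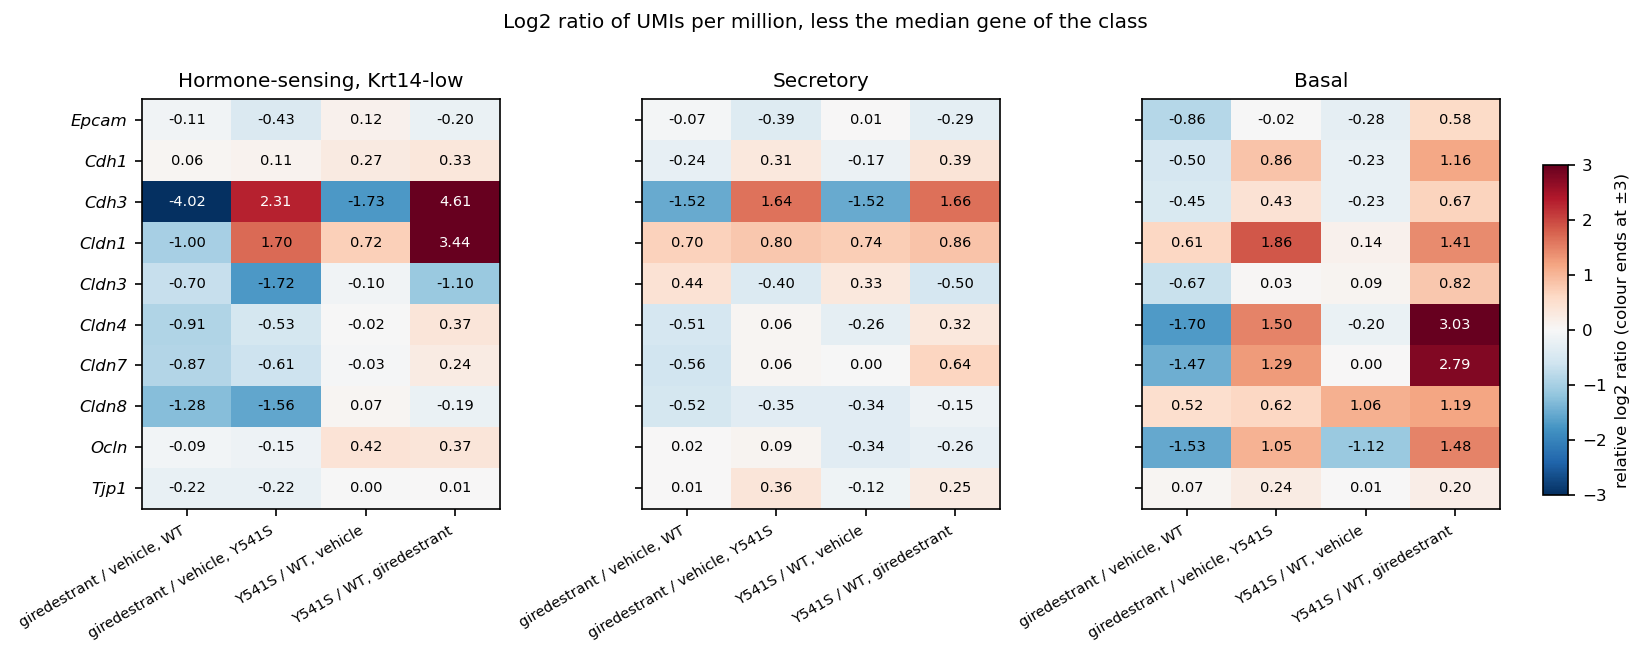
Log2 ratio of CPM less that of the median gene, for each member (rows) in the 4 comparisons (columns) and 3 classes (panels); red is higher and blue lower in the group named before the slash, and colours end at 3 in either direction. In Krt14-low hormone-sensing cells Cdh3 reads -4.02 with giredestrant in WT and 2.31 in Y541S, and Cldn3 and Cldn8 are blue in both.

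Within the Y541S giredestrant library the hormone-sensing cells could be followed across Krt14 level. Krt14-high cells, set against Krt14-low cells of the same library, had 4 members higher and 3 lower, against 20.9% and 20.2% of all genes; both sums come from 1 library and there is no test. The higher ones were Cldn1 (25.6 against 8.31 CPM, relative log2 ratio 1.88, 1.57 to 2.20), Cdh3 (90.8 against 39.6, 1.46, 1.31 to 1.61), Cdh1 (1034 against 705, 0.81, 0.77 to 0.85) and Cldn4 (913 against 667, 0.71, 0.67 to 0.76). The lower ones were Cldn3 (80.9 against 239, -1.30, -1.42 to -1.19), Cldn8 (10.3 against 26.4, -1.10, -1.44 to -0.77) and Cldn7 (249 against 457, -0.61, -0.68 to -0.54). The median gene lay at -0.26, and on plain CPM 2 members were higher and 3 lower, Cdh1 and Cldn4 then standing at ratios of 1.47 and 1.37. As a sum, Krt14-high cells thus held the cadherins of both layers, with Cdh1 above the secretory level of 994 CPM in the same library and Cdh3 at 32.2% of the basal level. After thinning, 92.8% of them had a Cdh1 UMI and 21.7% a Cdh3 UMI. Cells with both were not counted.

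The claudin levels were graded. Across 5 ranges of Krt14 (none, under 3, 3 to 10, 10 to 30, and 30 or more UMIs per 10000, with 954, 545, 348, 393 and 239 cells), Cldn3 stood at 246, 231, 123, 70.5 and 37.7 CPM and Cldn7 at 462, 450, 303, 242 and 184. Cldn4 stood at 655, 682, 886, 876 and 1012 CPM over the same ranges. Cdh3 stood at 32.7, 48.2, 90.6, 97.9 and 79.5 CPM and Cldn1 at 5.91, 11.3, 26.2, 25.7 and 24.5, both higher with each range up to 3 to 10 and with overlapping intervals beyond it.

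Cells of this library without any Krt14 UMI already had Cldn3 at 246 CPM, where Y541S vehicle cells had 620, and Cdh3 at 32.7 where vehicle cells had 6.29. Limiting the ranges to cells with 3000 or more UMIs gave Cldn3 at 248, 231, 122, 70.2 and 38.4. The cut at 3 is not a gap: 370 of the 2479 hormone-sensing cells of this library lay between 1.5 and 6 Krt14 UMIs per 10000. By share of cells, 65.0% (61.6% to 68.2%) of thinned Krt14-high cells had Cldn4 without Cldn3 (59.2% unthinned, median depth 7842 UMIs), against 38.2% of Krt14-low cells.

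Other lineage markers moved with this split. Leaving aside Krt14, which defines the split, Krt5 stood at 73.6 CPM in Krt14-high against 4.41 in Krt14-low cells. The 3 luminal keratins summed to 1722 against 5223, and the 6 secretory markers to 433 against 162. The defining basal genes were uneven: in Krt14-high cells Trp63 stood at 88.7% of the basal level, Krt17 at 19.3%, Krt5 at 12.0%, and Cnn1 and Oxtr at 0.815% and 1.28%. Among the cells that Scrublet scored highest as doublets were 64 of 980 Krt14-high and 48 of 1499 Krt14-low cells, and removing them left 4 members higher and 3 lower. Esr1, a gene of the gate, stood at 413 and 390 CPM.

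**Figure D4:**
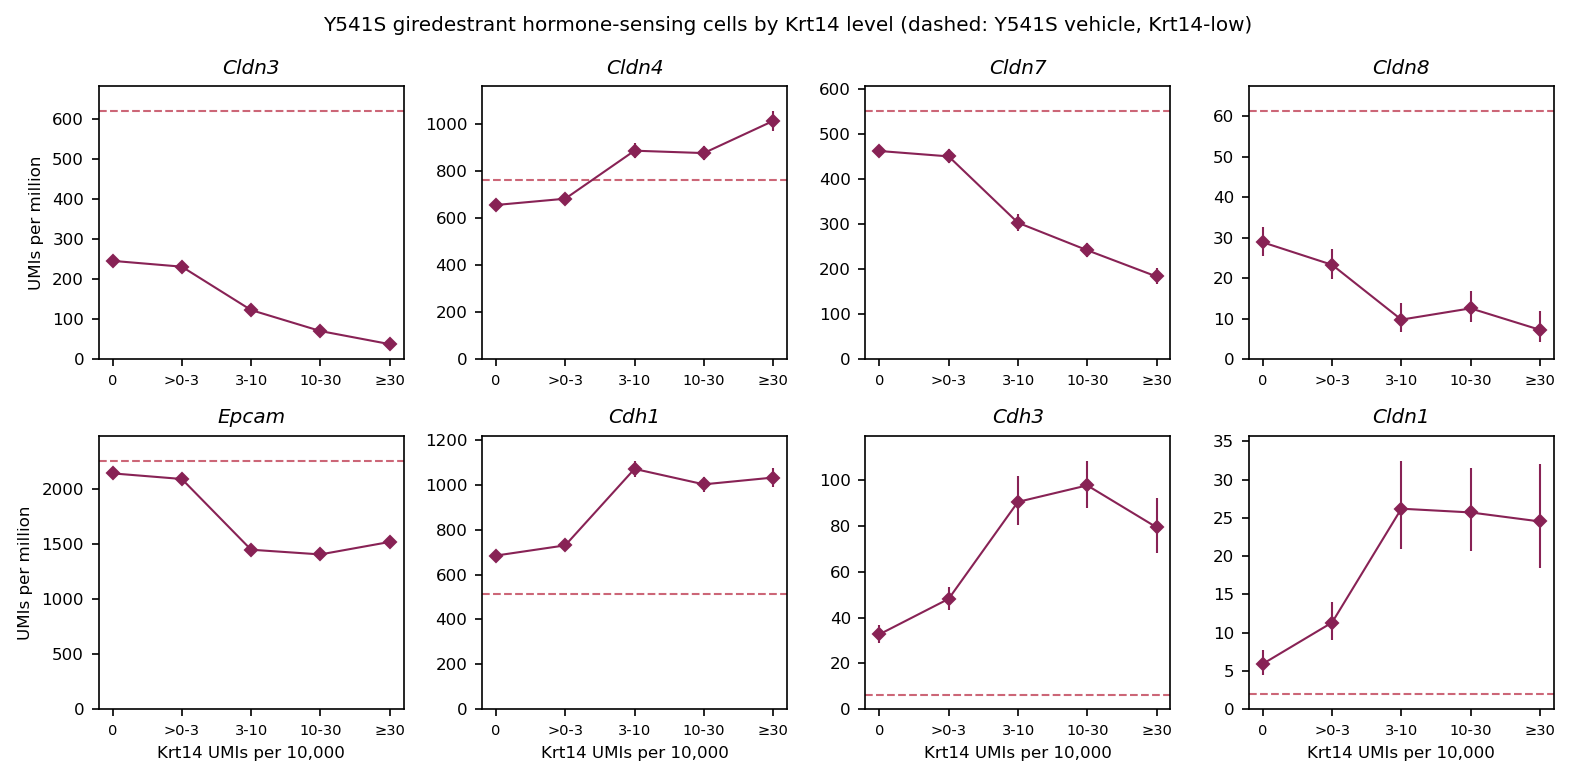
CPM of 8 members in hormone-sensing cells of the Y541S giredestrant library by Krt14 UMIs per 10000; points are sums over the cells of a range, bars exact 95% Poisson intervals, and the dashed line the Krt14-low level of the Y541S vehicle library. Cldn3 goes from 246 to 37.7 CPM while Cldn4 goes from 655 to 1012.

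Cldn3 and Cldn4 lie next to each other, which makes their divergence easy to place. In GRCm38 Cldn4 occupies chr5:134945119-134946934 on the minus strand and Cldn3 chr5:134986214-134987472 on the plus strand, each with 1 exon, 39.28 kb apart and with no annotated coding gene between them. Cldn3 overlaps the antisense gene Wbscr25, and whether strand was used in counting is not given in the sources used here. Wbscr25 was counted at 1.83 to 2.77 CPM in Krt14-low hormone-sensing cells. The promoters below are RefSeq's (GRCm38.p6, from 250 bases before to 50 after the start), shown because the genes parted further in Krt14-high cells. Snai2, a transcription factor known to bind E-boxes in the promoters of epithelial genes, stood there at 43.7 against 5.96 CPM in Krt14-low cells. Of 5 cadherin repressors 3 were measured in this split, 2 higher and 1 lower. The lower one was Snai1, at 1.01 against 2.67 CPM. Whether any of them acts on these promoters was not tested. Capitals mark the E-box CACCTG, or CAGGTG as it reads on the other strand.
Cldn3, chr5:134985964-134986263, plus strand: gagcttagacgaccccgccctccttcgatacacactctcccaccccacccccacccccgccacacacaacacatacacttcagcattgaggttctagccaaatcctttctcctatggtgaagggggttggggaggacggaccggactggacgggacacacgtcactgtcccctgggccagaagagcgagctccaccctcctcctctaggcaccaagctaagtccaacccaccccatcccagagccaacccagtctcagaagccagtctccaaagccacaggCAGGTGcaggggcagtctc
Cldn4, chr5:134946885-134947184, minus strand: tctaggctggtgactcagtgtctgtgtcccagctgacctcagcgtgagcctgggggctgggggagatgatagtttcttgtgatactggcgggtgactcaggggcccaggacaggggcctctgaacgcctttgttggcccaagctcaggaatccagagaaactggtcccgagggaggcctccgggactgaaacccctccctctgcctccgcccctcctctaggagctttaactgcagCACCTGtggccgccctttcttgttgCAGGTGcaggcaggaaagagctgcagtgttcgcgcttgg

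The Cldn3 promoter holds 1 such E-box and the Cldn4 promoter 2. The motif occurs in 20.2% of 32851 RefSeq promoters of this length, and in 6 of the 9 promoters listed for 7 members, those of Cldn3, Cldn4, Cldn7, Epcam and Ocln. A palindromic Grainyhead site, AACCGGTT, and a full estrogen response element, searched on both strands, occur in 0.146% and 0.0700% of all promoters and in 0 of the 9. Both neighbours are GC-rich (60.67% and 61%, median of all promoters 52.67%) with 9 CpG each. A match describes letters only, and the E-box was present in the gene that was lower and in the gene that was higher. The cadherins also lie near each other, with 1 coding gene, Gm10073, between them: Cdh3 at chr8:106510891-106557297 and Cdh1 at chr8:106603351-106670246, both on the plus strand and 46.05 kb apart.

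Fewer members passed with giredestrant in secretory cells than in the other classes, and their counts lay near the shares of all genes. With giredestrant 1 member was higher and 1 lower in WT (9.48% and 10.7% of all genes), and 2 were higher and 0 lower in Y541S (16.4% and 18.4%). Cldn1 stood at 40.1 and 67.9 CPM with vehicle and giredestrant in WT (relative log2 ratio 0.70, 0.54 to 0.87) and at 65.7 and 115 in Y541S (0.80, 0.70 to 0.91). Its level was lowest in WT vehicle and highest in Y541S giredestrant.

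Cdh3 was counted as lower in WT and higher in Y541S, but on 32 to 75 UMIs in a class where its share of cells was not set apart from background. Between genotypes 1 was higher and 1 lower under vehicle (6.65% and 11.5% of all genes), and 3 were higher and 0 lower under giredestrant (16.8% and 18.2%). Those 3 were Cdh3, Cldn1 and Cldn7, which stood at 489 CPM in WT and 714 in Y541S (0.64, 0.60 to 0.69). Cldn3 ranged from 538 to 810 CPM without passing in any comparison. On plain CPM between genotypes under giredestrant, Cldn7 no longer passes (ratio 1.46) and Cldn3 does, as lower in Y541S (0.664).

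In basal cells the members seen in more cells than among non-epithelial cells were Cdh1, Cdh3 and Epcam. Cdh1 stood at 299 CPM in Y541S with vehicle and 570 with giredestrant (relative log2 ratio 0.86, 0.83 to 0.90), and at 350 and 275 in WT (-0.50, -0.55 to -0.46). The Y541S giredestrant library was the high one of the 4, and 75.1% of its thinned basal cells had a Cdh1 UMI against 48.0% to 54.8% elsewhere. Cdh3 followed in smaller size, at 200 and 282 CPM in Y541S (0.43, 0.38 to 0.48) and 233 and 190 in WT (-0.45, -0.50 to -0.39), neither past 1.5-fold. Epcam stood at 646 CPM with vehicle and 397 with giredestrant in WT (-0.86, -0.89 to -0.82) and at 535 and 554 in Y541S (-0.02, -0.05 to 0.01). The Y541S giredestrant library, the shallowest, was highest for Cdh1 in Krt14-low hormone-sensing (705 CPM) and secretory cells (994 CPM) as well. Cdh3, Cldn1 and Tjp1 were likewise highest there in hormone-sensing, secretory and basal cells. The other members were not highest there in every class, and Cldn3 was lowest there in hormone-sensing cells (239 CPM). Whether these levels belong to the library as a whole was not tested.

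Over all 10 members, 1 was higher and 5 lower with giredestrant in WT basal cells (14.8% and 14.3% of all genes), and 6 were higher and 0 lower in Y541S (14.3% and 12.1%). Between genotypes 1 was higher and 1 lower under vehicle (7.41% and 12% of all genes), and 8 were higher and 0 lower under giredestrant (16.5% and 16.5%). Most of these counts come from luminal genes whose share of basal cells lay within the intervals of the non-epithelial cells. Cldn4 stood at 9.24, 3.16, 8.08 and 23.9 CPM, and as a percent of its hormone-sensing level it was 1.31%, 0.618%, 1.06% and 3.59%. Other luminal genes were set on the same percent scale. Areg stood at 0.462%, 0.210%, 0.617% and 1.14%, lowest and highest in the same libraries as Cldn4. The same held for Krt8 (9.18%, 6.23%, 6.63% and 17.8%) and Krt19 (1.53%, 0.622%, 1.08% and 2.24%). Krt18 (3.40%, 2.11%, 2.04% and 6.23%) was highest in Y541S giredestrant but lowest in Y541S vehicle. Pgr stood at 3.01%, 14.1%, 2.35% and 3.64%, highest in WT giredestrant, where its hormone-sensing level was lowest (91.9 CPM). Basal levels themselves were less alike. Krt8 stood at 306, 230, 283 and 369 CPM and Krt19 at 37.6, 28.5, 42.1 and 30.3. Pgr stood at 11.9, 13.0, 10.8 and 12.7 CPM. The part of luminal RNA in the basal claudin values was not tested. When cells of more than 1 gate were kept, the Y541S giredestrant counts over all 3 classes went from 10 higher and 3 lower to 6 and 6. The fibroblast markers in basal cells summed to 149, 305, 267 and 417 CPM; their part in these values was not tested.

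The other genes of the junctions were taken from lists by kind of junction. In basal against hormone-sensing cells (edgeR, adjusted p under 0.05), where 29.5% of all genes were higher and 30.6% lower, 9 of 14 tight junction genes were lower and 3 higher, and 5 of 7 epithelial transcription factors were lower. Cgn, the cytoplasmic cingulin, was lower by -6.65 and Marveld2, tricellulin, by -3.03. Of 5 cadherin repressors 4 were higher, led by Snai2 at 6.77, and 3 of 5 gap junction genes were higher, among them Gja1 (connexin 43) at 3.90. Of 12 desmosome genes 5 were higher and 4 lower, a share near that of all genes, Dsc3 and Dsg3 standing at 4.63 and 4.48 and Pkp2 at -5.89.

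In Krt14-low hormone-sensing cells of Y541S, giredestrant against vehicle, 7 of 12 desmosome genes were higher and 0 lower, against 23% and 24.4% of all genes. The plakophilin Pkp1 stood at 28.9 against 2.48 CPM (relative log2 ratio 3.20). The 4 measured gap junction genes were all higher, Gja1 at 68.2 against 29.8 CPM. The protease inhibitor Spint2 stood at 433 against 737 CPM. The tight junction list had 2 higher and 4 lower, with Cldn6, a claudin of embryonic epithelia, at 1.80 CPM with giredestrant and 35.7 with vehicle. In WT the same comparison gave Cldn6 at 26.6 and 10.4 CPM, and 1 desmosome gene higher and 3 lower, Perp standing at 65.2 against 173.

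In Krt14-high against Krt14-low cells of the Y541S giredestrant library, 8 of 12 desmosome genes were higher and 0 lower and 1 tight junction gene was higher and 5 lower of 13 measured, against 20.9% and 20.2% of all genes. Dsc3 stood at 17.0 against 1.49 CPM, Dsg3 at 16.4 against 1.86 and Gja1 at 315 against 68.2. Among adherens junction genes Nectin1 and Vcl were higher (1.71 and 1.13) and Nectin4 was lower (-1.29). Epcam stood at 1448 against 2118 CPM and did not pass (-0.29, -0.32 to -0.26).

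By likeness of log2(CPM + 1) over the 13 sums of class and library with 30 or more cells, among 6846 genes at a mean of 20 or more CPM, the genes closest to Cldn3 were Bspry, Clcn3 and Krt18 (Pearson r of 0.992, 0.988 and 0.987). Ocln was closest to Pkp2, Marveld2 and Cldn7 (0.989, 0.988 and 0.986), and Cldn7 to Mmp15, Dleu2 and Pkp2. Cldn4 was closest to Myh14, Cecr2 and Unc13b, Cldn8 to Lsr, B3gat3 and Tfcp2l1, and Epcam to Dleu2, Basp1 and Nectin4. Cdh3 was closest to Lhfp, Arhgap24 and Dstn (0.962, 0.960 and 0.958). Among members the highest r was 0.99 for Cldn7 with Ocln and the lowest -0.93 for Cdh3 with Cldn3. The sums share libraries and depth, and the contrast of basal with luminal cells dominates them, so these values only describe.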

How the data were processed

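The deposited matrices of the 4 libraries hold UMI counts, not normalized, made with Cell Ranger 6.0.1 per the file headers, on GRCm38 per the submitters' processing notes. Further deposited lists per library carry other information, the barcodes and the gene names. The annotation release and the handling of intronic reads are not given in the sources used here. Library totals ran from 70781982 to 132660456 UMIs, and no barcode had under 500. The members, gates and companion lists were chosen with earlier results of these data known. All 10 members were named, and of each companion list at most the 3 genes with the largest ratio at 20 or more CPM per comparison and class; Dsc3, Dsg3 and the companions named from the tests between classes and from the Krt14 split were chosen after their values were seen.

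Counts were summed per class and library. Cells meeting more than 1 gate were left out, which was the treatment of doublets; Scrublet (Scanpy 1.11.5) was run as an alternative. Class differences were tested with edgeR 4.0.16 (TMM, R 4.3.3), tested also on simulated data, with DESeq2 1.42.0 as an alternative. The planned test of Krt14-high against Krt14-low cells could not be made with 1 library of 30 or more Krt14-high cells, and comparisons between groups cover 3 classes. Nothing says how animals were pooled into libraries. With library as a term, p-values measure how far class differences varied over these 4 libraries, which differ in genotype and treatment. They do not measure spread between replicates. Ratios carry exact conditional binomial intervals, levels exact Poisson intervals and shares exact binomial intervals (scipy 1.17.1, 95%). Results for 1 companion list are not reported here.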

Additional observations from a re-analysis of the deposited data

Results flagged for a closer look

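Relative log2 ratios of giredestrant to vehicle pointed in opposite directions in the 2 genotypes for 6 gene and class pairs, each past 1.5-fold in both. With 1 library per group, the difference between genotypes was not tested. In Krt14-low hormone-sensing cells Cdh3 read -4.02 in WT and 2.31 in Y541S, and Cldn1 read -1.004 and 1.70, the former on 21 and 27 UMIs. By share of thinned cells, only Cdh3 in the Y541S giredestrant library lay above the non-epithelial interval there (9.54% against 0% to 5.60%). The other Cdh3 and Cldn1 shares in this class did not. In secretory cells Cdh3 read -1.52 and 1.64. In basal cells Cldn4 read -1.70 and 1.496, Cldn7 -1.47 and 1.29, and Ocln -1.53 and 1.05, all with shares of cells within the intervals of the non-epithelial cells.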

How the results depend on the processing

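No paired analysis was possible because each group has 1 library and the labels carry no replicate numbers; this holds for the groups, while classes were compared within libraries by the library term. The number of members past the test in secretory against hormone-sensing cells was 4 and ran from 2 to 4 when 1 library was left out, the 2 being without the WT vehicle library; for basal against hormone-sensing cells it ran from 8 to 10, and basal against secretory kept 10. DESeq2, no filter on low counts, a minimum of 3000 UMIs and gates 2 times higher changed none of these counts. Basal against hormone-sensing went from 10 to 8 with no library term, and to 9 with cells of more than 1 gate kept, with Scrublet's top cells removed or with the class unsplit. Secretory against hormone-sensing went to 3 with no library term or with cells of more than 1 gate kept. Single ratios often left their counting intervals under other processing. This was so for 65 with thinning (56 stayed), 63 with cell means (67 stayed) and 49 with TMM (71 stayed). A minimum of 3000 UMIs moved no ratio out of its interval. Single values turned in sign as follows. With cells of more than 1 gate kept, the giredestrant ratio in WT read 1.29 for Cldn1 in Krt14-low hormone-sensing cells and 0.20 for Cldn3 in basal cells, and in Y541S basal cells -0.19 for Cldn7 and -1.30 for Cldn8. With gates 2 times higher, Cldn1 in WT Krt14-low hormone-sensing cells read 1.77. The cause was not tested. Over 3 classes and 10 members, the counts of higher and lower values with giredestrant in WT were 2 and 12, and 3 and 7 on plain CPM. Between genotypes under vehicle they were 3 and 3, and 7 and 2 with cells of more than 1 gate kept. The alternatives that left the hormone-sensing class unsplit, or that used plain CPM, cell means or thinning for the Krt14 split, were chosen after seeing the data. For the Krt14 split, DESeq2, the low-count filter, leaving out a library and the library term were not run. Genes under about 1 CPM, such as Cldn8 in basal cells, rest on 7 to 18 UMIs a sum.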
